A study of Homo sapiens with 4 samples.

Results

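The 10 genes described here lie at or beside a stretch of chromosome arm 9p, in band 9p21, in which no H3K27ac peak had been called in any of 4 ChIP-seq libraries of triple-negative breast cancer cells. From the telomeric to the centromeric side they are FOCAD, HACD4, IFNB1, KLHL9, IFNE, MTAP, CDKN2A, CDKN2B, DMRTA1 and ELAVL2, and they are 10 of 19970 protein-coding genes annotated on chromosomes 1 to 22 and X. The genes were selected on measured peak positions: the stretch was picked because it lacked peaks, and its edges were read from the same lists between 19 and 27 Mb of chromosome 9 (hg38). The absence of peaks at genes inside it is therefore a description and was given no test. MDA-MB-231 and Hs578T, 2 established human lines without hormone receptors or HER2 amplification, were starved for 8 h, given TWEAK, a cytokine of the TNF family, at 10 ng/ml over 48 h and, per the labels, kept without it for 72 h. All 4 libraries, labelled replicates 1 and 2 of each line, come from this condition. Cells without TWEAK did not enter the comparison, so whether TWEAK acts on 9p21 was not measured.

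H3K27ac, the acetylation of a lysine on the tail of histone H3, is found at active promoters and enhancers. The 9p21 band carries the INK4 inhibitors of the RB pathway: p16, encoded by CDKN2A, and p15, encoded by CDKN2B, block the cyclin D kinases CDK4 and CDK6 and so keep RB able to hold E2F factors in check. A second reading frame of CDKN2A gives ARF, which restrains the ubiquitin ligase MDM2. MTAP, the enzyme that recycles methylthioadenosine into methionine, lies beside them, and the type I interferon genes lie on its telomeric side. Loss of the band is frequent in human cancers.

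The lists were not equal in what they can show. On chromosomes 1 to 22 and X, replicate 1 of MDA-MB-231 had as few as 209 peaks, of which 8 lay on chromosome 9 and 0 between 19 and 27 Mb. On all sequences its 318 peaks came to 10.2% of the highest running number in its peak names, 3129. The other 3 lists had 43353 to 46330 peaks, with 96.5 to 97.7% by the same measure. These 3 are called the large lists below. Bases covered by the large lists overlapped with Jaccard indices (bases shared, divided by bases in either list) of 0.759 and 0.77 between lines and 0.78 between the Hs578T lists, so the large lists stood almost as close across lines as within one, and equal edges in them cannot be counted as separate evidence from 2 lines. Samples are named as labelled throughout, but whether the list labelled MDA-MB-231 replicate 2 comes from that line could not be settled from the lists. At the promoters of the mesenchymal genes VIM, AXL and CD44 every large list had a peak, and at the luminal genes ESR1, GATA3 and FOXA1 none had. These calls were the same in every large list, so they do not tell the lines apart. Of all protein-coding promoters, 56.4 to 58.2% had a peak in the large lists.

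Peaks ended at nearly the same base on each side of the 9p21 genes. In the list labelled MDA-MB-231 replicate 2 no peak lay between chr9:20756388-25094441. In Hs578T replicate 1 the interval was chr9:20756406-25094416 and in Hs578T replicate 2 it was chr9:20756529-25094201. The left edges of the large lists thus fell within 141 bp of each other and the right edges within 240 bp. The left border peak of MDA-MB-231 replicate 2 missed a q-value of 0.01, and without it the left edge of that list lay 23.4 kb further left, giving 4.36 Mb. With all lists merged the stretch was 4.34 Mb long and held 0 unknown bases in the reference. The mean for the Hs578T lists was 4.34 Mb, with an SD of 0.239 kb (n = 2). In MDA-MB-231 replicate 1 the nearest peaks to MTAP lay 30.7 Mb apart, because that list is sparse, and the list has no bearing on where the stretch ends. The mean over both MDA-MB-231 lists, 17.5 Mb ± 18.6 (SD, n = 2), accordingly describes neither of them.

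At the density of each large list on chromosome 9, 12.7 to 13.8 peaks per Mb, an interval of this length would hold 55.2 to 60 peaks. That number gives a scale only. The interval was picked for holding no peak, so nothing is read from the difference. In the rest of the 19 to 27 Mb window the same lists had 10.9 to 11.7 peaks per Mb. The peaks on either side of the stretch carried consecutive running numbers in every large list, with 0 numbers between them, so no numbered peak had been removed from within it before deposition. Sequencing depth, input signal and DNA copy number at 9p21 were not measured here, and a region with little acetylation and a region with little DNA cannot be told apart from peak lists.

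**Figure D1:**
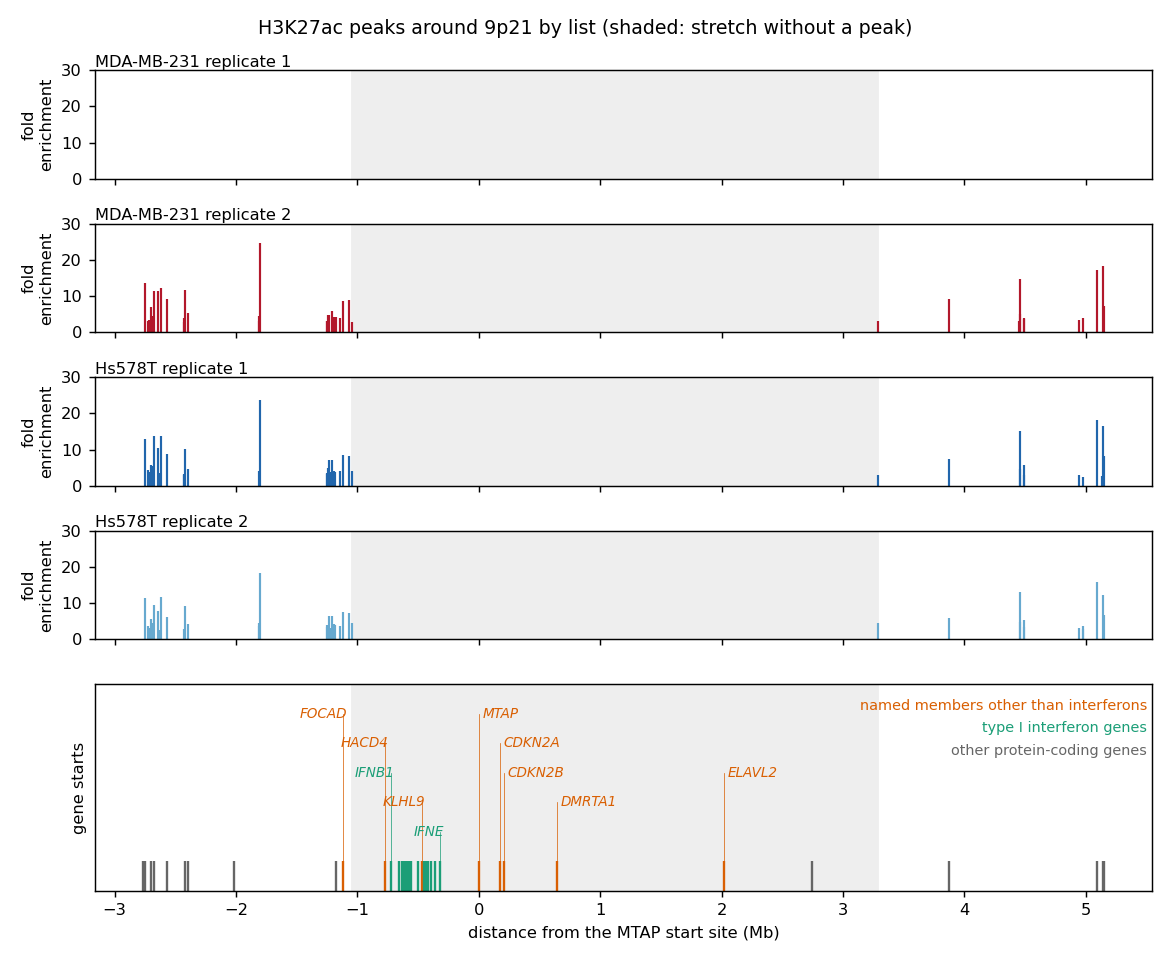
Peaks of each list between 19 and 27 Mb of chromosome 9, as vertical lines at the peak centre with the authors' fold enrichment as height (linear axis), against the distance from the MTAP start site in Mb. The lowest panel marks the start sites of protein-coding genes. The shaded 4.34 Mb held no peak in any list, 9 of the 10 members start inside it, and in replicate 1 of MDA-MB-231 the whole window held 0 peaks.

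The left edge lies inside a gene. FOCAD encodes focadhesin, a protein that stabilises the SKI RNA helicase complex, and runs from chr9:20658309-20995955 on the plus strand. The last peak before the stretch fell in intron 5 of its canonical transcript of 44 exons, so that 39 exons, and 70.9% of the gene's length, lay within the stretch. This last peak had a fold enrichment (the height over the local background, as the authors' peak caller gave it) of 2.91 in MDA-MB-231 replicate 2, 4.22 in Hs578T replicate 1 and 4.62 in Hs578T replicate 2. It stood below the median of each list, in which 7.39, 39.5 and 47% of all peaks had a lower fold enrichment. It was centred 71.7 to 71.8 kb past the canonical FOCAD start. The peak before it, centred 47.8 to 48 kb past that start, reached 8.82, 8.32 and 7.3.

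The right edge lies between genes. The first peak past the stretch was 230, 265 and 523 bp wide in the large lists, in the order given above, with fold enrichments of 3.19, 3.11 and 4.45. Only 1.42, 2.73 and 13.8% of the peaks of these lists were narrower. The next peak stood 0.582 to 0.583 Mb further on, over the promoter of TUSC1, and was stronger, with 9.21, 7.39 and 5.79. The right border of the stretch therefore rests on 1 narrow peak, which was nevertheless called at the same place in each large list, and without it the distance from the left edge to the TUSC1 peak is 4.92 Mb.

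The bases of both border peaks are shown because they mark where called acetylation stopped. They are read from hg38 on the plus strand, with CG dinucleotides in capitals. The first is the last 150 of the 749 bases that the left border peak covered in every large list, chr9:20756238-20756387, in the FOCAD intron. The second is the whole 230 bases that the right border peak covered in every large list, chr9:25094442-25094671.
Left border peak: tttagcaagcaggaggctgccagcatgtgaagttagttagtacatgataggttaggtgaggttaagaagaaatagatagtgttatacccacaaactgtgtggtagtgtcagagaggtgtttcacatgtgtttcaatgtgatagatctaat
Right border peak: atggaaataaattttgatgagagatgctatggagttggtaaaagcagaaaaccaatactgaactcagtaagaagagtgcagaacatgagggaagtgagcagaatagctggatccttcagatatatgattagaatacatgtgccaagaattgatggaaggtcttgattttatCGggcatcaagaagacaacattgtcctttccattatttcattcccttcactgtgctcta
The left fragment held 0 CG dinucleotides and the right one 1, at GC contents of 39.3% and 37.8%, so neither border lies in a CpG island. The stretch as a whole had a GC content of 36.9%, against 41.3% for chromosome 9.

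Within these borders 24 protein-coding genes start. They are HACD4, KLHL9, MTAP, CDKN2A, CDKN2B, DMRTA1, ELAVL2 and IZUMO3, a sperm protein gene, together with 16 type I interferon genes, which is every interferon gene of the list examined: IFNB1, IFNW1, IFNE and 13 IFNA genes. There were also 19 long non-coding RNA genes and 1 microRNA gene in the annotation. The genes were not evenly spread. From the left edge to DMRTA1, over 1.69 Mb, 22 of the 24 start, and only ELAVL2 and IZUMO3 start in the 2.65 Mb that follow. With 5.53 protein-coding starts per Mb against 6.59 in the genome, the stretch was not a gene desert by number.

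Of the 10 members, 1 had a peak within 1 kb of its start site in any list. This was FOCAD, which starts outside the stretch, and the 9 others start inside it. Among all protein-coding genes such a peak was present at 58.1% in MDA-MB-231 replicate 2, 58.2% in Hs578T replicate 1 and 56.4% in Hs578T replicate 2, and at 0.0601% in MDA-MB-231 replicate 1. Because the stretch was selected for lacking peaks, nothing is read from the difference between the members' share and these background shares.

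FOCAD is the member just outside the stretch, and HACD4 the one just inside. The FOCAD start site, chr9:20684259, lies 72.3 kb before the left edge and was covered in all 3 large lists with fold enrichments of 8.54, 8.45 and 7.57. These were middling values: 45.3, 52.6 and 56.6% of marked promoters in the respective list were lower. A more upstream FOCAD start, at position 20658309, also carried a peak, at 4.04, 4.1 and 3.62, and no FOCAD start within the stretch did. The HACD4 start, at position 21031640, lies 275 kb past the edge and carried none. HACD4 is a dehydratase of very long-chain fatty acid synthesis.

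On the other side, IZUMO3, the last gene inside, starts 0.548 Mb before the right edge. It had no promoter peak, which was fixed by how the edges were set. Unlike that of HACD4, its promoter was not CpG-rich (defined below), with a CpG observed/expected ratio of 0.065. TUSC1, the nearest gene beyond, starts 0.584 Mb past the right edge and had a promoter peak in every large list. On the left, MLLT3, a chromatin reader of the super elongation complex, starts 0.134 Mb before the edge, with 4.22, 3.71 and 3.96. Further right, CAAP1 at 1.8 Mb and PLAA at 1.85 Mb past the edge had the strongest promoter peaks of the window in each large list, between 12.3 and 18.4. In all, 13 CpG-rich promoters lay in the window outside the stretch and 12 of them had a peak in each large list. The 1 without a peak, SLC24A2, encodes an ion exchanger of retina and brain. Across the genome 74.8 to 77% of CpG-rich promoters had a peak in the large lists. The count of 12 was not tested against this share, and nothing is read from its contrast with the genes inside.

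The INK4 genes lay deep inside. The canonical CDKN2A start, that of the p16 transcript, at position 21974857, was 1218 kb from the nearest peak in each large list. The 13 annotated CDKN2A starts, which reach from position 21970467 to 21995301 and so include those of the ARF transcripts, all lacked a peak. CDKN2B, at position 22009305, was 1253 kb from the nearest peak, and its 3 annotated starts lacked one too. The antisense transcript CDKN2B-AS1, which runs across CDKN2B from a start at position 21995133, was 1239 kb away. In all these cases the nearest peak was the left border peak in FOCAD. The lack of peaks at these starts was fixed by the choice of the stretch.

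MTAP starts at position 21802636 and was 1046 kb from that peak, with none of its 13 annotated starts marked. No base of the MTAP gene body, 135 kb long, was covered in any list. Like the unmarked starts, this follows from the choice of the stretch. DMRTA1, a DM-domain transcription factor gene, lay farthest from any peak, at 1690 kb. ELAVL2, which encodes a neuronal RNA-binding protein of the Hu family, is the member nearest the right border: its start was 1268 kb from the right border peak and 3070 kb from the left edge.

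The remaining members are those without a link to the RB pathway that lie nearer the left edge. IFNB1, the interferon-β gene, was 321 to 322 kb from the nearest peak, KLHL9, a substrate adaptor of the CUL3 ubiquitin ligase, 579 kb, and IFNE, an interferon of epithelia of the reproductive tract, 726 kb. The distances followed gene order as far as DMRTA1, and no promoter of the RB-pathway genes or of these neighbours had a peak. Among all protein-coding genes, distances over 1 Mb made up 0.596 to 0.621% in the large lists, and those over 250 kb 4.07 to 4.21%. The distances of the members inside follow from the choice of the stretch and are all measured to its border peaks. They are therefore not separate observations, and nothing is read from these shares.

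**Figure D2:**
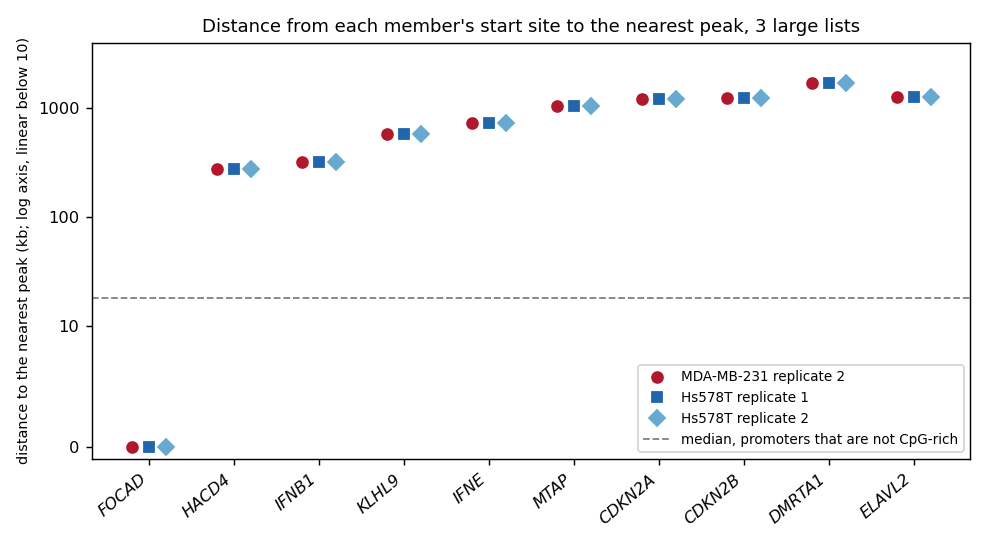
Distance in kb from the canonical start site of each member to the nearest peak in the 3 large lists (log axis, linear below 10 kb), with members in chromosomal order. The dashed line is the median for promoters that are not CpG-rich in the middle one of the 3 lists. FOCAD sits at 0, and the other 9 members lie from 275 kb (HACD4) to 1690 kb (DMRTA1), with the 3 lists on top of each other.

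The promoter sequence of the members was not used in choosing the stretch. A promoter was called CpG-rich if, from 250 bases before to 50 after the canonical start, its GC content was at least 50% and its CpG observed/expected ratio at least 0.6. By this measure 6 of the 9 members inside were CpG-rich, namely HACD4, KLHL9, MTAP, CDKN2A, CDKN2B and ELAVL2, as was FOCAD outside. This share, 66.7%, was close to the 65.5% of all protein-coding promoters and does not set the members apart. Their ratios ran from 0.686 for KLHL9 to 0.828 for HACD4, and FOCAD had 0.892. DMRTA1 fell just short, with a ratio of 0.549, but reached 0.731 when 500 bases on either side were used. Under that wider window ELAVL2 dropped out instead, at a GC content of 46.3%.

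The interferon genes were of the opposite kind. The 16 promoters had a median of 1 CG dinucleotide in 300 bases, with a range of 1 to 3, and observed/expected ratios of 0.0829 to 0.317. Their GC content ran from 26.3 to 40.3%. None of them was CpG-rich.

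The 2 classes were marked at unlike rates across the genome. Of 13084 CpG-rich promoters, 77% had a peak in MDA-MB-231 replicate 2, 77% in Hs578T replicate 1, 74.8% in Hs578T replicate 2 and 0.0841% in MDA-MB-231 replicate 1. Of the 6886 other promoters the shares were 22.1, 22.6, 21.5 and 0.0145% in the same lists. Across the genome, a lack of peaks was thus the usual state for promoters like those of IFNB1 and IFNE and the less usual one for promoters like those of CDKN2A and CDKN2B. The members' own lack of peaks was fixed by the choice of the stretch, so nothing about them is read from these shares. In the bin of ratios from 0.7 to 0.8, which holds MTAP, CDKN2A, CDKN2B and ELAVL2, 70, 70.2 and 68.2% of 2658 promoters were marked in the large lists. In the bin from 0.1 to 0.2, which holds IFNB1, 10.9, 11.2 and 10.7% of 1371 were.

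**Figure D3:**
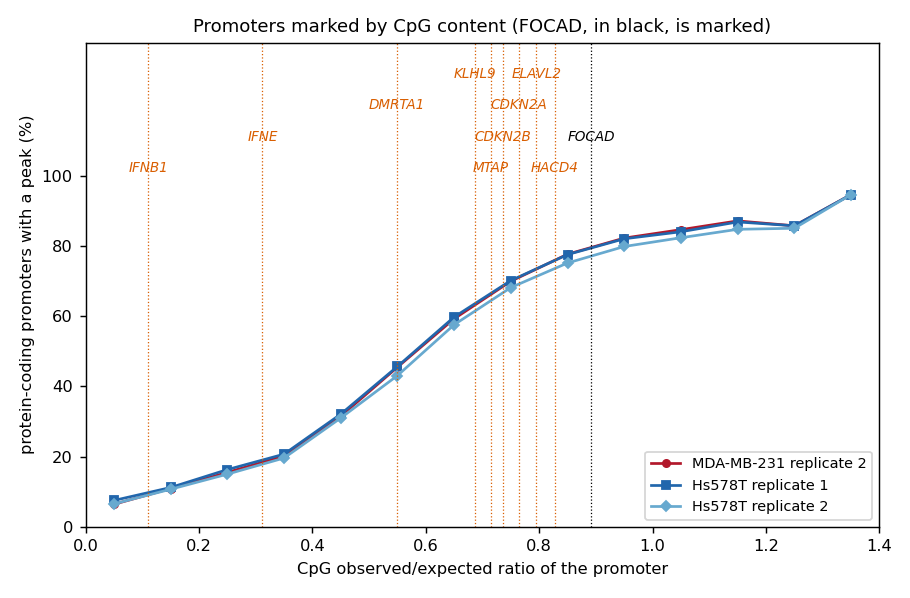
Percentage of protein-coding promoters with a peak within 1 kb of the start, by CpG observed/expected ratio of the promoter in bins of 0.1, for the 3 large lists. Dotted lines give the ratios of the 10 members. In MDA-MB-231 replicate 2 the share marked was 6.41% of 1014 promoters in the lowest bin and 94.7% of only 19 in the highest. The members inside the stretch, none of them marked, have ratios from 0.111 (IFNB1) to 0.828 (HACD4).

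The 250 bases before the start site are shown for FOCAD, which starts outside the stretch and was marked. Those of MTAP, CDKN2A and CDKN2B, which start inside it, are shown too. Their lack of a peak was fixed by the choice of the stretch. Sequences are from RefSeq (GRCh38.p14), 5′ to 3′ on the strand of the gene, with CG dinucleotides in capitals. They lie at chr9:20684009-20684258 on the plus strand, chr9:21802386-21802635 on the plus strand, chr9:21974858-21975107 on the minus strand and chr9:22009306-22009555 on the minus strand.
FOCAD: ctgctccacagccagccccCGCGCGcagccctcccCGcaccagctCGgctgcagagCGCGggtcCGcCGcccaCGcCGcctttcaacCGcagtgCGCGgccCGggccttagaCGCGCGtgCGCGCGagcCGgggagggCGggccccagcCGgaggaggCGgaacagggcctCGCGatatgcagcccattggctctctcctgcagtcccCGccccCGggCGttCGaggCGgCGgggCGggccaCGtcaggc
MTAP: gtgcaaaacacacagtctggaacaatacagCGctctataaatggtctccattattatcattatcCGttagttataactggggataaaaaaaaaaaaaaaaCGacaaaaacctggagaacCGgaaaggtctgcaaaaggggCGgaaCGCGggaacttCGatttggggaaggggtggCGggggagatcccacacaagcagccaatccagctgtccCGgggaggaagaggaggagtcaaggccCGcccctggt
CDKN2A: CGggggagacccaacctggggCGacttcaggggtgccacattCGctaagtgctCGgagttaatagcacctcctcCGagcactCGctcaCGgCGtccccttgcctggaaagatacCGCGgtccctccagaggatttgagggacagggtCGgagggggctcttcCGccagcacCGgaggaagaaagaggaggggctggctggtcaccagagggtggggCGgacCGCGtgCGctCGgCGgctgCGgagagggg
CDKN2B: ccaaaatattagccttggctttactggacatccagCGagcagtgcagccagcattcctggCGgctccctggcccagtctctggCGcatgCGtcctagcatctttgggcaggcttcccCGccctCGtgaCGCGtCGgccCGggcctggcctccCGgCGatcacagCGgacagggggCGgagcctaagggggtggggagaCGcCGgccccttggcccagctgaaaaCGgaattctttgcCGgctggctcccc
FOCAD had 35 CG dinucleotides in these bases, CDKN2A 20, CDKN2B 18 and MTAP 11. The GC contents were 77.6, 66.8, 66.4 and 50% in that order. Nothing about marking is read from these differences.

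The IFNB1 promoter is shown for contrast, at chr9:21077943-21078192 on the minus strand, with its match to the NF-κB motif in capitals. NF-κB is a target of TWEAK signalling, and the interferon-β enhancer is a textbook case of its binding. The study reported that TWEAK activated the non-canonical NF-κB branch, left the canonical branch unaffected, and lost much of this effect after wash-off. Whether either branch acts at IFNB1 in these cells was not tested.
IFNB1: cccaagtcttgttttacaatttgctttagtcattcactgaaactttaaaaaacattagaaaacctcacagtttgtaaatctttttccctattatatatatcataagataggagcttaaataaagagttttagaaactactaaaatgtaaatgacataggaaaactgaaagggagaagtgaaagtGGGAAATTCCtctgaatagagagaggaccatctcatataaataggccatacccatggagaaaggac
It held 0 CG dinucleotides. Among the 16 interferon promoters of 300 bases, searched on both strands, IFNB1 was the 1 with the NF-κB motif, and of the 8 members that are not interferons 1, MTAP, had it as well. It was present in 6.57% of all protein-coding promoters. The AP-1 motif, TGANTCA, was in 0 of the 16 and in 0 of the 8 other members, with 5.44% of all promoters having it. The GC box GGGCGG was in 7 of those 8 members and in none of the interferon promoters, against 61.3% of all promoters. The core motif of interferon regulatory factors, GAAANNGAA, was in 3 of the 16, IFNA1, IFNA8 and IFNA13. Of the 8 other members 1, HACD4, had it, against 7.04% of all promoters. TATAAA was in 2 of the 16, IFNB1 and IFNE, and in 2 of the 8, MTAP and ELAVL2, against 9.73% of all promoters. A motif match is a match of letters and was not tested for binding.

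Non-coding RNA genes add a pair of microRNAs on opposite sides of the left edge. MIR491 lies in FOCAD 40.4 kb before the edge, and MIR31 lies 756 kb past it, within its host gene MIR31HG. The MIR31HG start, at position 21559849, was CpG-rich, with a ratio of 0.916, and was 803 kb from the nearest peak in each large list. Mature sequences from RefSeq are shown because these microRNAs are the products of transcripts that start on either side of the border, with the seed (bases 2 to 8) in capitals.
hsa-miR-491-5p: aGUGGGGAacccuuccaugagg
hsa-miR-31-5p: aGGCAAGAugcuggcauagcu
Their seeds differ. The 2 lncRNA genes checked by name, CDKN2B-AS1 and MIR31HG, both start inside the stretch. Their lack of a promoter peak was therefore fixed by its choice.

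Genes that work with the members but lie elsewhere were mostly marked, which was also the usual state of CpG-rich promoters: 74.8 to 77% of these had a peak in the large lists, as did 56.4 to 58.2% of all promoters. The counts that follow were not tested against these shares. Of 14 RB-pathway genes outside 9p21, 13 had a promoter peak in each large list, and CCND2, a cyclin D gene, had none. The INK4 paralogs CDKN2C and CDKN2D, which encode p18 and p19, carried fold enrichments of 14.3, 11.8 and 10.4, and of 12, 10.1 and 9.71. RB1 itself had 22.7, 18.8 and 14.9, and the INK4 target kinase genes CDK4 and CDK6 had 14, 15.2 and 14.5, and 13.9, 10.4 and 7.44. Within the INK4 family, peaks were called at both genes outside 9p21 and at neither gene inside it. The lack of a peak inside was fixed by the choice of the stretch, so nothing is read from this contrast.

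Partners of MTAP and of the interferons were marked as well. Of 11 genes of methionine salvage, polyamine synthesis and the MTAP-linked PRMT5 and MAT2A axis, 11 were marked in each large list. MAT2A, the methionine adenosyltransferase, had 23.3, 13.5 and 16.8, and the arginine methyltransferase gene PRMT5 had 5.41, 6.44 and 5.43. Of 9 genes of the interferon receptor and its signalling, 9 were marked, with IFNAR1 at 11.9, 8.7 and 5.56. The 3 SKI complex genes, whose products FOCAD stabilises, and CUL3, the partner of KLHL9, were marked too, making 4 of 4.

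Paralogs of the members outside 9p21 were divided. Of 11 examined, 4 had a promoter peak in each large list. These were HACD1, HACD2 and HACD3, the paralogs of HACD4, and ELAVL1, the Hu gene used by most cell types, at 8.93, 5.49 and 4.03. The neuronal Hu genes ELAVL3 and ELAVL4, the DM-domain genes DMRT1, DMRT2, DMRT3 and DMRTA2, and KLHL13 had none. The paralogs examined were thus all unmarked for DMRTA1 and KLHL9, all marked for HACD4 and divided for ELAVL2. The lack of a peak at these members was fixed by the choice of the stretch, and its cause was not tested.

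Stretches without a peak occurred throughout the genome, and 9p21 was not the longest. Between neighbouring peaks of all lists merged, with at most 10% unknown bases, 770 stretches were at least 0.5 Mb long and 293 at least 1 Mb. The 9p21 stretch was number 15 by length, and the longest, on chromosome 11, spanned 9.12 Mb. By the number of CpG-rich protein-coding promoters inside, 9p21 with 6 was in place 3. Under a stricter definition (GC at least 55%, ratio at least 0.75) it held 3, namely HACD4, CDKN2A and ELAVL2, and was in place 4, level with 17 other stretches. With 500 bases on either side of the start it held 6 and was in place 1, level with 2 others. A 1.69 Mb stretch on chromosome X held 9 such promoters, a 6.46 Mb stretch on the same chromosome held 7, and a 1.4 Mb stretch of zinc finger genes on chromosome 19 also held 6. Of the 293 stretches of at least 1 Mb, 120 held no CpG-rich promoter, the median was 1, and 6 held 5 or more.

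**Figure D4:**
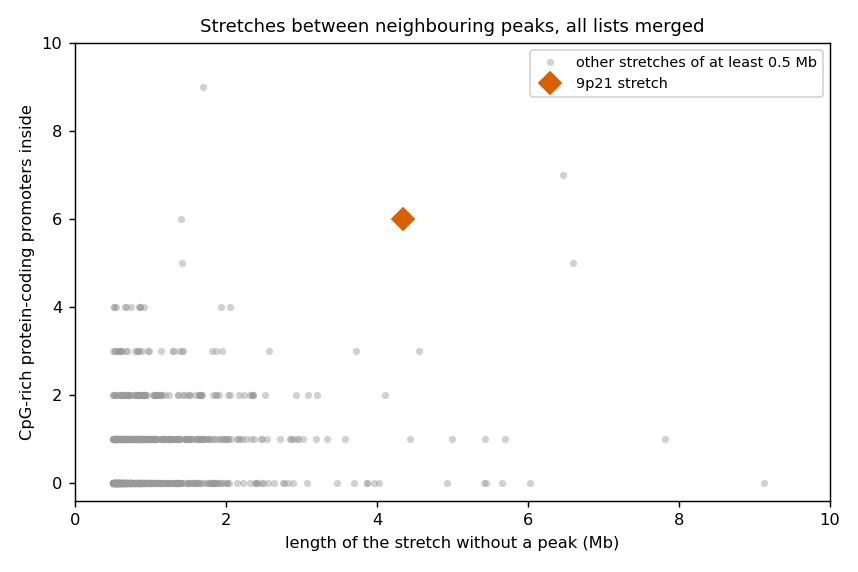
Length in Mb of each stretch of at least 0.5 Mb between neighbouring merged peaks, against the number of CpG-rich protein-coding promoters that start inside it. The 9p21 stretch, the orange diamond at 4.34 Mb and 6 promoters, had more such promoters than all but 1 of the 17 stretches of at least 4 Mb, and the 2 grey points above it are both on chromosome X.

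Genes elsewhere with a promoter like that of MTAP and as far from any peak were few. Outside 9p21, 25 of 13084 CpG-rich promoters lay at least as far from the nearest peak as that of MTAP in each large list. Inside the stretch 4 did, MTAP included, which follows from how the stretch was chosen. Ordered by distance, the leading ones were FAM47A at 3.22 Mb, TMEM47 at 2.69 Mb and CDH8, a neuronal cadherin gene, at 2.4 Mb in each large list. They were followed by CNTNAP3C at 2.36, 2.36 and 5.57 Mb, by PRR20A to PRR20E at 2.28 to 2.31 Mb, and by CNTNAP5 at 2.19, 2.25 and 2.25 Mb. The 5 PRR20 genes are near-identical copies, to which short reads cannot be assigned uniquely, so their distances are uncertain. Whether reads can be assigned uniquely at the other genes among the 25 was not examined.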

How the data were processed

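H3K27ac ChIP-seq peaks of 4 libraries, 2 per cell line, were examined. The authors trimmed adaptors with Trimmomatic, aligned reads to hg38 with Bowtie2, called peaks per library with MACS2 after input subtraction, and removed blacklisted regions. Versions and MACS2 settings were not given in the sources used here. The deposited lists give positions, a score, a fold enrichment (a ratio), and −log10 p- and q-values for each peak, used as deposited. Read depth is unknown.

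Gene starts were those of Ensembl canonical transcripts in GENCODE release 44. Overlap was at least 1 bp, and a promoter reached 1 kb on either side of a start. Edges were the last peak before and the first after the MTAP start. A list with more than 1000 peaks was called large. Scripts ran in Python 3.11.15 and were tested on simulated peaks. No statistical test was made, because the genes were chosen on the peaks. The members and lists were chosen with earlier results of these data known. Genes named were the members, the other genes inside, the nearest 3 marked genes on each side, listed partners, and genes elsewhere with a CpG-rich promoter at least as far from a peak as MTAP. The time without TWEAK is longer in the study's own text than in the labels. Alternatives covered peak strength, q-value, promoter window, start sites, CpG definition and each list left out. One listed gene is not reported here.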

Additional observations from a re-analysis of the deposited data

How the results depend on the processing

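Of 50 recomputed values other than MDA-MB-231 means, 40 stayed within the spread between replicates, or within 1.5 times for counts. The 16 recomputed MDA-MB-231 means say nothing on stability, because their spread is that between a list of 209 peaks and one of 43353. The edges of the merged lists and the 24 genes inside were the same with peaks at q of 0.01 or less and with regions called in at least 2 lists, and the 1 marked member stayed at q of 0.01 or less. List by list, the left edge of MDA-MB-231 replicate 2 moved by 23.4 kb at that q-value, an alternative chosen after seeing the data. With the strongest 50% of each list the merged stretch grew to 4.94 Mb, as did the mean of the Hs578T lists, because both border peaks dropped out, and 24 protein-coding starts again lay inside. Leaving out each list in turn gave 4.34 to 4.34 Mb for the merged stretch. For MDA-MB-231 the length was 4.34 Mb without replicate 1 and 30.7 Mb without replicate 2, so replicate 1 alone sets that mean. The rank by length ran from 14 to 19 over all settings. The background share of marked promoters in Hs578T, 57.3%, became 59.5% and 62.3% with windows of 2.5 and 5 kb, 61.9% with all transcript starts, 45.5% with at least 50% of the window covered and 44.1% with the strongest 50% of peaks. For CpG-rich promoters it went from 75.9% to 78.7% under the stricter definition (GC at least 55%, ratio at least 0.75), which left 3 such promoters in the stretch in place of 6. By CpG-rich promoters the stretch went from place 3 to 4 under that definition and to 1 with 500 bases on either side, both also added after seeing the data. No paired analysis was possible because the results come from no test. The peak lists hold no read depth, so a region just under the calling threshold and a region without reads look alike.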
